A study of Mus musculus with 7 samples.

Results

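Genes of squamous differentiation were followed in mouse mammary glands kept in organ culture, across the 7 arrays of the series, with 1 array per group. The 10 genes were Ly6d, Krt1, Krt10, Krt6a, Krt13, Krt4, Ivl, Sprr1a, Lor and Tgm1. They were chosen by name, with earlier values of the same arrays known, and each was read by the 1 gene probe whose RefSeq accession maps to it, so that 10 probes of 34967 gene probes, and 10 of 13971 named genes, are described. Because of that choice, their values are given as a description with no test.

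RNA came from thoracic mammary glands of 4-week-old female mice cultured in serum-free medium (mouse mammary gland organ culture, MMOC), with insulin, prolactin, aldosterone and hydrocortisone for a growth phase of 10 days and, for glands kept 24 days, insulin alone for 14 further days of regression. Glands with both estrogen receptors were on 5 arrays: WT C57 glands after 10 days without the carcinogen DMBA, after 24 days without DMBA, and after 24 days with DMBA (2 µg/ml for 24 h on Day 3), and BALB/c glands after 24 days with and without vitamin D5, whose dose the labels do not state. The remaining 2 held 24-day glands labelled as from αERKO and βERKO mice, knockout lines for ERα and ERβ made on a C57BL6/129SV background, which differs from that of the C57 controls. The titles name DMBA for 1 WT array and leave it out for the arrays labelled as knockouts and for BALB/c, whereas the methods describe DMBA for WT, αERKO and βERKO glands. All protocols in the labels give 1 µg estrogen with 1 mg progesterone for 9 days before culture, and also 25 ng EGF with 1 mg progesterone for 5 days, without saying which each array had. The paper gives EGF with progesterone as the pretreatment of the WT, αERKO and βERKO glands in its own array comparison. For WT, αERKO and βERKO, RNA of 5 mice was pooled, so a group's spread between mice was averaged away and no error between replicates exists.

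Stratified squamous epithelia, such as epidermis and the lining of the mouth, renew from basal cells that express Krt5 and Krt14. Cells leaving the basal layer switch to other keratins and then build a cornified envelope, in which transglutaminases cross-link precursor proteins such as involucrin, loricrin and the small proline-rich proteins under the membrane. Mammary epithelium is normally glandular rather than squamous, but it shares the basal keratins, and squamous change is a known form of mammary metaplasia.

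The envelope precursors Ivl, Sprr1a and Lor lie on chromosome 3, and their promoters are shown because Ivl and Sprr1a were highest on the 2 arrays labelled as knockouts whereas Lor was nearly level. The sequences are those of RefSeq (mouse, GRCm38.p6, all on the minus strand, 5′ to 3′), from 250 bases before to 50 after the start site, and capitals mark each match to TGANTCA, the core recognised by AP-1 factors, which was searched on both strands, where it has the same letters, so each place was counted once. The windows lie at chr3:92573686-92573985 for Ivl, chr3:92485832-92486131 for Sprr1a and chr3:92083093-92083392 for Lor.
Ivl: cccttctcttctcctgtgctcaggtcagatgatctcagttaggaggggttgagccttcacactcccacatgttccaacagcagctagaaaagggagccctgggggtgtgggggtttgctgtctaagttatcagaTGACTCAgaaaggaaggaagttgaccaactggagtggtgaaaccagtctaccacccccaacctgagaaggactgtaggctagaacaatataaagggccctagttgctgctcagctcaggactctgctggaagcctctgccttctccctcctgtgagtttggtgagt
Sprr1a: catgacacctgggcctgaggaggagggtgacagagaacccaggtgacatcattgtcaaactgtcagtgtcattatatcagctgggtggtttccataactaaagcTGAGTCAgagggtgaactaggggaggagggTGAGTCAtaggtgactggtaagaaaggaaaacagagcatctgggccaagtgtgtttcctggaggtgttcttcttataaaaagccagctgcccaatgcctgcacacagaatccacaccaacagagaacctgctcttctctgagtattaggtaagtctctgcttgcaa
Lor: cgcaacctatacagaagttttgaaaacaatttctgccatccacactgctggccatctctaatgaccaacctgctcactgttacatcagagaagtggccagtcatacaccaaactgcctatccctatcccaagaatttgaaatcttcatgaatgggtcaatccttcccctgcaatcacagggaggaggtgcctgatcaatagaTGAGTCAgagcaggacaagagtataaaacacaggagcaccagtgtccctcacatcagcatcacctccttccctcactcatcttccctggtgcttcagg
The match began at base -116 from the start site in Ivl, at -146 and -116 in Sprr1a and at -48 in Lor. Of the 10 genes, 6 had a window in the table, and 4 of these held the motif, Krt13 being the other. Counted by window, since Krt13 and Tgm1 have 2 each, it was in 5 of 8, and in 7.81% of all 32851 windows of 300 bases. The windows of Krt10 and Tgm1 held no match. A match describes the letters of these windows only.

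Levels are given as the intensity of a spot above its local background, divided by the median of all gene probes on its array, so that 1 is the level of the middle probe of that array. A spot was taken as measured where the scanner software had called it good. The software called between 68.4% and 74.2% of gene probes good, the median intensity of gene probes was 39.1 to 53.0 over a median local background of 80 to 83, and the lowest good levels were 0.271 to 0.362. In place of replicates, the SD of the difference in log2 ratio between 2 probes of the same accession served as a measure of probe error; over the 21 pairs of arrays it was 0.27 to 0.96, and it was highest in pairs with αERKO. It covers the error of probes, not the spread between mice or cultures. The probe for Esr2 was brightest on the array labelled βERKO, at 1.83, at least 6.69-fold higher than on WT with DMBA, so that array is called here by its label only and every direction drawn from it carries that doubt. The probe for Esr1 was not good on αERKO or on the array labelled βERKO, but it was good on only WT with DMBA (0.494) and BALB/c with vitamin D5 (0.600) among the other arrays. Whether either probe lies in the disrupted part of its gene was not checked.

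Only part of a squamous program was measurable. Ly6d, Krt6a, Krt4, Sprr1a, Lor and Tgm1 were good on all 7 arrays, Krt1 on 4, Krt10 and Ivl on 2 each, and Krt13 on 1. No array had all 10 genes good, the number running from 6 on WT with DMBA to 8 on WT at 10 days and on both BALB/c arrays. Krt1 and Krt10, the keratin pair that defines the suprabasal epidermis, were not good on αERKO, on the array labelled βERKO or on WT with DMBA. Mammary epithelium was present on every array, since Krt18, a luminal keratin, was good at 166 to 386 and Krt5, a basal keratin, at 35.9 to 453.

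Ly6d, a membrane-anchored Ly6 family protein of stratified epithelia that is also known from early B-lineage cells, differed most. Its level was 159 on αERKO, 145 on the array labelled βERKO, 29.2 on BALB/c with vitamin D5, 27.8 on WT at 10 days, 17.0 on BALB/c, 4.07 on WT at 24 days and 1.5 on WT with DMBA. αERKO and the array labelled βERKO thus lay above all 5 others, and WT with DMBA was lowest. The span was 106-fold, and 0.219% of the probes good on all 7 arrays spanned as much. Neighbours in that order differed by less than 1 SD of probe error between αERKO and the array labelled βERKO, and between BALB/c with vitamin D5 and WT at 10 days.

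Among the keratins, Krt6a, which is induced in wounded and hyperproliferative epidermis, read 42.4 on BALB/c with vitamin D5, 29.6 on WT at 10 days, 14.7 on the array labelled βERKO, 11.2 on WT at 24 days, 10.96 on BALB/c, 3.66 on αERKO and 3.11 on WT with DMBA. Here αERKO stood beside WT with DMBA at the bottom, within 1 SD, and the array labelled βERKO beside WT at 24 days. The span was 13.6-fold, which 2.36% of probes good on all arrays matched or exceeded. Krt1 was good at 2.26 on BALB/c with vitamin D5, 1.60 on WT at 10 days, 0.872 on BALB/c and 0.493 on WT at 24 days. On αERKO, the array labelled βERKO and WT with DMBA it was not good, at 0.152, 0.294 and 0.226. Its partner Krt10 was good at 0.792 on BALB/c with vitamin D5 and at 0.390 on WT at 10 days, the same arrays on which Krt1 and Krt6a were highest. Elsewhere Krt10 was not good, at 0.0687 to 0.248.

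Krt4 and Krt13 form the keratin pair of mucosal squamous epithelia such as the oesophagus. Krt4 was good throughout and nearly level, between 3.16 on αERKO and 5.59 on WT at 24 days, a span of 1.77-fold in which every neighbour in the order was within 1 SD. Krt13 was good on BALB/c alone, at 0.411. Its brightest spot, 1.20 on WT at 24 days, was flagged as irregular and is not counted as measured. On the 5 remaining arrays Krt13 was dim, at 0.0554 to 0.261.

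Of the cornified envelope precursors, Sprr1a, a small proline-rich protein, read 40.3 on the array labelled βERKO, 11.7 on αERKO, 6.63 on BALB/c with vitamin D5, 5.83 on WT at 10 days, 4.11 on WT at 24 days, 3.20 on BALB/c and 2.28 on WT with DMBA. The array labelled βERKO and αERKO were again the highest, though αERKO, BALB/c with vitamin D5 and WT at 10 days followed one another within 1 SD. The span was 17.7-fold, reached by 1.70% of probes good on all arrays. Ivl, which encodes involucrin, an early scaffold of the envelope, was good only on the array labelled βERKO, at 1.43, and on αERKO, at 0.871. On the other 5 arrays it was not good, at 0.0875 to 0.210, below the lowest good level of each. Lor, which encodes loricrin, the main protein of the mature epidermal envelope, was good on all 7 arrays between 1.60 on WT at 10 days and 2.20 on BALB/c, a span of 1.38-fold with all neighbours within 1 SD. Tgm1, the membrane-bound transglutaminase that cross-links the precursors, ran from 0.688 on the array labelled βERKO to 1.86 on WT with DMBA, a span of 2.70-fold, with 0.979 on WT at 24 days, 0.992 on WT at 10 days, 1.20 on BALB/c, 1.22 on αERKO and 1.65 on BALB/c with vitamin D5. Its highest and lowest arrays were thus the reverse of those of Sprr1a. Near-identical relatives (Krt6b for Krt6a, the Sprr genes for Sprr1a) could share signal with these probes, and probe sequences were not used here.

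**Figure D1:**
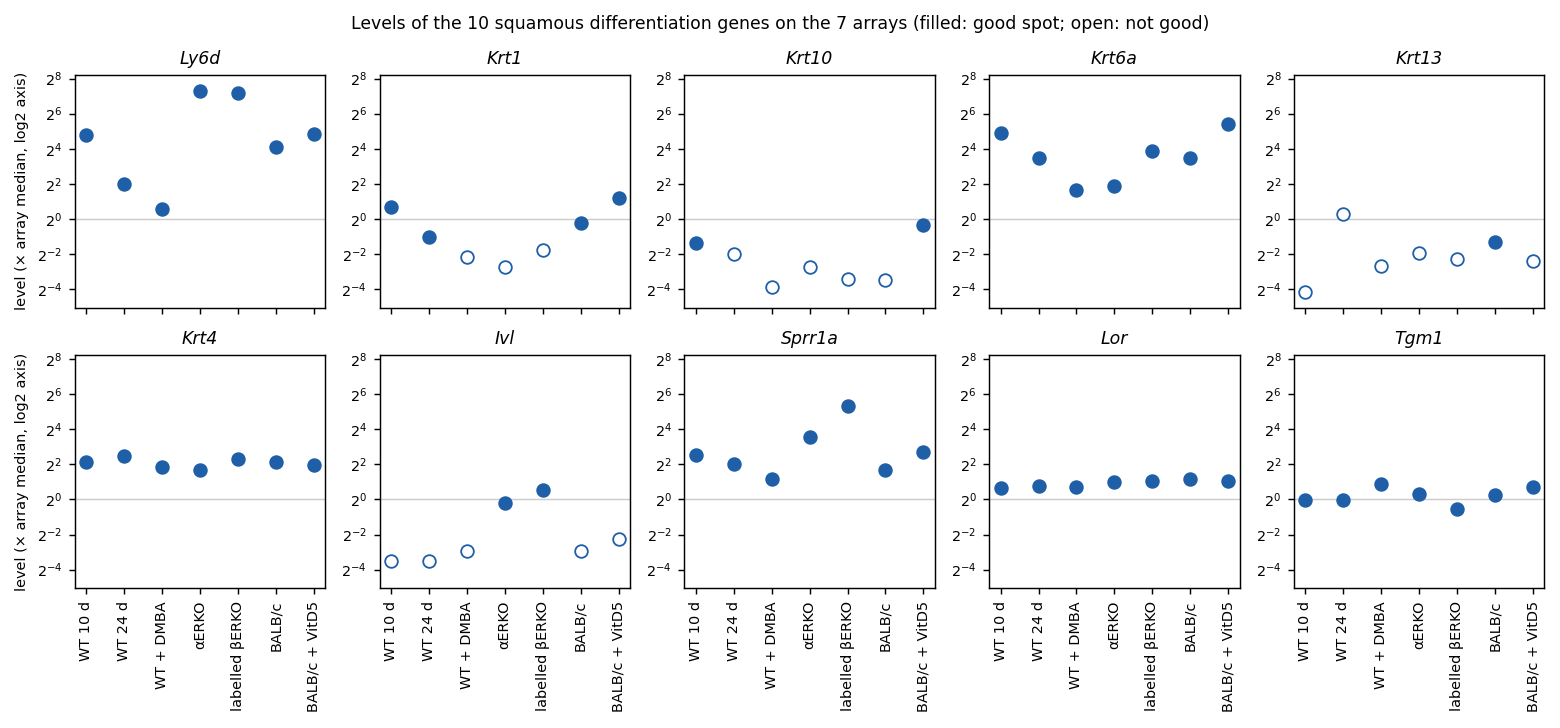
Level of each of the 10 genes on each of the 7 arrays, on a log2-spaced axis where 1 is the median gene probe of the array. Filled points were called good by the scanner software and open points were not. Ly6d lies at 159 on αERKO and 1.5 on WT with DMBA, whereas Lor and Krt4 stay nearly level. Most points of Krt10, Krt13 and Ivl are open.

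The genes did not move as one. Over the 9 genes good on at least 2 arrays, Pearson correlations of the log2 levels across the 7 arrays (which share only their scaling; dim values are included) had a median of 0.08 over 36 pairs, with 16 pairs below 0 and 3 above 0.8. Ly6d, Ivl and Sprr1a went together, with r of 0.85 for Ly6d and Sprr1a, 0.88 for Ivl and Sprr1a, and 0.79 for Ly6d and Ivl. Ivl was good only on the 2 arrays where it and Ly6d were high, so its correlations rest on those arrays and on 5 dim values. Krt1, Krt10 and Krt6a formed the other close group, with r of 0.90 for Krt1 and Krt6a, 0.77 for Krt10 and Krt6a, and 0.75 for Krt1 and Krt10. Krt10 was good on only 2 arrays and Krt1 on 4, so the correlations of this group also rest partly on dim values. Tgm1 ran against Sprr1a, at -0.695. With 7 arrays of unlike conditions these values describe the arrays and carry no p-value.

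**Figure D2:**
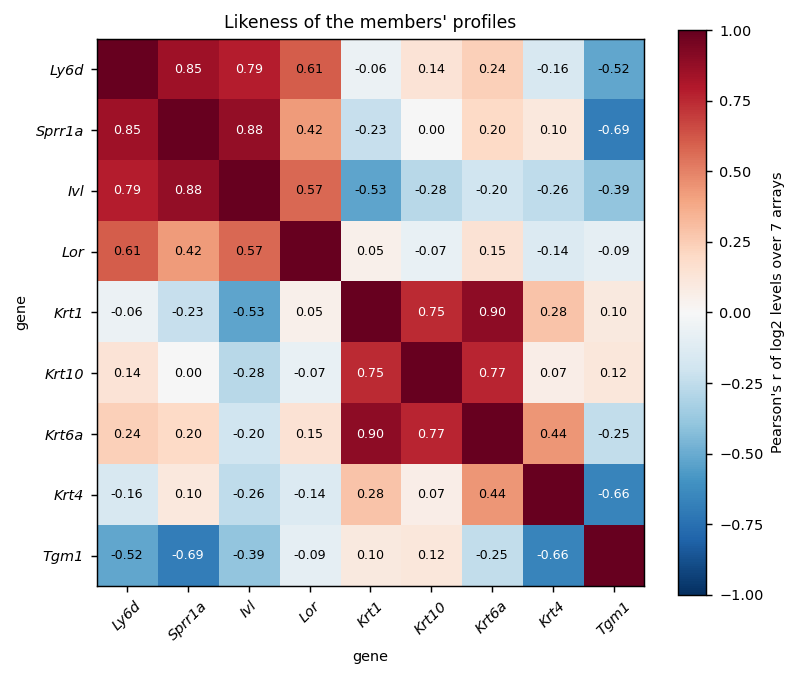
Pearson r of the log2 levels of each pair of genes over the 7 arrays, as numbers and colour, for the 9 genes good on at least 2 arrays. The blocks that stand out are Ly6d with Ivl and Sprr1a, and Krt1 with Krt10 and Krt6a, with r up to 0.90.

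DMBA in WT glands was read from the pair of WT arrays at 24 days, which asks what carcinogen exposure early in culture left behind. With DMBA, Ly6d was 1.5 against 4.07 (2.71-fold lower, log2 -1.44) and Krt6a 3.11 against 11.2 (3.58-fold lower, log2 -1.84), differences of 3.30 and 4.22 SD of probe error. Krt1 was good without DMBA only and was at least 1.80-fold lower with it. (For a gene good on 1 array of a pair, such a bound sets the good level against the higher of the lowest good level on the other array and the gene's own level there.) Sprr1a was 1.80-fold and Krt4 1.58-fold lower, Lor was level at 1.02-fold, and Tgm1 was 1.90-fold higher. Of 7 genes measured on at least 1 of the pair, 3 read over 2-fold lower, 2 of them without a dim array, and 0 higher. Over all 27808 probes measured, 8.46% were over 2-fold lower and 10.1% higher (18.6% either way), and the median log2 ratio was -0.13 against -0.85 for the squamous genes. Under normexp background correction with an offset, which draws dim values together, Ly6d (log2 -0.95) and Krt1 (-0.31) were within 2-fold and Krt6a (-1.47) was not. Each ratio compares 1 array with 1 array, and with whole glands, fewer cells of a type and less RNA per cell cannot be told apart.

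Related epidermal genes, from lists written down with earlier results known, were mostly lower with DMBA too. Some of these lists also hold genes of the 10. Squamous keratins were over 2-fold lower for 5 of 10 and higher for 0 (median log2 ratio -1.04). Without the genes of the 10, keratins were lower for 3 of 7 and higher for 0 (median -0.96), with Krt17 4.25-fold lower. Epidermal proteases and their inhibitors were lower for 7 of 12 and higher for 1 (median -1.06), among them Klk6, a kallikrein, at 0.770 against 10.2 (13.3-fold lower), and Slpi, a secreted protease inhibitor, at 95.7 against 613 (6.40-fold lower). Cornified envelope precursors were lower for 5 of 28 and higher for 1 (median -0.30). This list held genes that differed in opposite directions. Sprr2f, another small proline-rich gene, read 52.6 against 5.29 (9.95-fold higher), while Crct1, a neighbour of the envelope genes, read 0.406 against 5.93 (14.6-fold lower). The remaining lists leaned to the lower side or went both ways. Elovl4, which makes the very long fatty acids of the skin barrier, was 7.12-fold lower, with 4 of 11 barrier lipid genes over 2-fold lower and 0 higher. Regulators of squamous differentiation were lower for 4 of 25 and higher for 1, with Klf5 5.62-fold, Ovol1 3.71-fold and Grhl3 2.87-fold lower. Desmosome genes were lower for 3 of 10 and higher for 0, and S100 genes of the epidermal cluster for 1 of 11 each way, with S100a4 7.66-fold higher.

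Markers of other cells also differed between these arrays, some lower and some higher. Luminal markers were over 2-fold lower for 6 of 13 and higher for 0 (median -0.95), with summed levels of 972 with DMBA and 1921 without. Basal markers were lower for 2 of 11 and higher for 1 (median -0.64), with summed levels of 167 and 281. Milk protein genes were instead higher for 3 of 7 and lower for 1 (median 0.40), with summed levels of 367.2 with DMBA and 335.5 without. Adipocyte markers were higher for 7 of 11 and lower for 2 (median 1.70), and macrophage markers higher for 6 of 7 and lower for 0 (median 1.73). The part of these cell types in the lower squamous genes was not tested.

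Longer culture of WT glands without DMBA, 24 against 10 days, compares regression with the end of growth. Ly6d read 4.07 against 27.8 (6.84-fold lower, log2 -2.77), Krt1 0.493 against 1.60 (3.24-fold lower) and Krt6a 11.2 against 29.6 (2.65-fold lower), which were 8.56, 5.23 and 4.34 SD of probe error. Krt10 was good at 10 days only and was at least 1.20-fold lower later. Sprr1a was 1.42-fold lower, Krt4 1.28-fold higher, and Lor and Tgm1 were level at 1.04-fold and 1.01-fold. Of 8 genes measured, 3 were over 2-fold lower and 0 higher, where 6.34% of 27173 probes were lower and 6.05% higher (12.4% either way). The median was -0.58 for the squamous genes and 0.09 for all probes. With normexp Krt1 was within 2-fold (log2 -0.74).

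Envelope precursors as a list were lower at 24 days for 10 of 31 and higher for 1, which was Sprr2f (10.1-fold), with Lce3f, a late envelope gene, 7.93-fold lower and Dmkn 4.67-fold lower. Squamous keratins were lower for 5 of 11 and higher for 0 (3 of 7 and 0 without the genes of the 10). Krt16, the partner of Krt6a, read 8.89 against 75.02 (8.44-fold lower). Envelope genes and keratins of this pair of arrays were thus lower more often than higher. The cysteine protease inhibitor Stfa3 read 0.737 against 74.6, a 101-fold difference. Basal markers were lower for 5 of 11 and higher for 0, with Krt5 3.11-fold and Krt14 2.50-fold lower, whereas luminal markers were past 2-fold for 0 of 13 in either direction and adipocyte markers were higher for 10 of 11. The part of basal cells in the lower squamous genes was not tested.

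Glands of αERKO mice were compared with WT glands with DMBA, the 24-day WT array of the study's own comparison. Ly6d was 159 against 1.5, 106-fold higher (log2 6.73, 7.95 SD), and 0.579% of measured probes differed as much in either direction. Sprr1a was 11.7 against 2.28 (5.12-fold higher, 2.79 SD), and Ivl, good on αERKO only, was at least 3.19-fold higher. Krt6a (1.18-fold higher), Krt4 (1.12-fold lower), Lor (1.23-fold higher) and Tgm1 (1.52-fold lower) were within 1 SD. Thus 3 of 7 genes measured were over 2-fold higher and 0 lower, where 11.7% of 27812 probes were higher and 14.1% lower (25.8% either way). The median of the squamous genes was 0.30 and that of all probes -0.09. With normexp the log2 ratio of Ivl was 0.72, within 2-fold.

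Set against WT at 24 days without DMBA instead, Ly6d was 39.2-fold higher, Ivl at least 2.68-fold and Sprr1a 2.85-fold higher, the last of these by 1.57 SD. Krt6a was 3.04-fold lower there, 1.67 SD, so its comparison depends on which WT array is used. Krt1, good on the WT array only, was at least 1.36-fold lower. Of 8 genes measured against that array, 3 were over 2-fold higher and 2 lower, where 15.4% of 27583 probes were higher and 20.9% lower (36.3% either way). Without Krt1, whose bound is below 2-fold, 4 remained past 2-fold. Ivl, among these, also has a dim spot, but its bound passes 2-fold.

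Around these genes, αERKO glands were uneven. Envelope precursors were over 2-fold higher than on WT with DMBA for 10 of 31 and lower for 3 (8 of 28 and 3 without the genes of the 10). Cdsn, which encodes the corneodesmosin of cornified cell junctions, read 7.43 against 0.359 (20.7-fold higher), and Sprr2f 2.15 against 52.6 (24.4-fold lower). Keratins were higher for 1 of 9 and lower for 1, namely Krt78 (3.34-fold higher) and Krt17 (7.50-fold lower). The other lists differed among themselves. Cross-linking genes were higher for 2 of 4 and lower for 0, S100 genes higher for 3 of 12 and lower for 1, and Ly6 and PLAUR domain genes higher for 2 of 7 and lower for 1, Ly6d among them. Barrier lipid genes were higher for 2 of 11 and lower for 3, with Elovl4 4.97-fold lower. Proteases and inhibitors were lower for 6 of 10 and higher for 1, with Slpi 6.63-fold lower. Desmosome genes were lower for 4 of 9 and higher for 0, with Perp at 2.57 against 24.0 (9.33-fold lower), and regulators were lower for 8 of 25 and higher for 1, with Cebpb 4.42-fold lower. In the cross-linking list, Sult2b1 and Sdr9c7, good on αERKO only, were at least 4.14-fold and at least 3.70-fold higher. The list results also depend on the WT array used. Against WT at 24 days without DMBA, keratins were higher for 0 of 9 and lower for 5 (median -1.09). Desmosome genes were higher there for 0 of 10 and lower for 7, and regulators higher for 2 of 25 and lower for 13. Envelope precursors were higher for 9 of 33 and lower for 6, and cross-linking genes higher for 1 of 5 and lower for 2.

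Markers of tissues next to the gland also differed on the αERKO array. Skeletal muscle markers were over 2-fold higher for 12 of 12 (median 8.04), with a summed level of 2764 against 9.94 to 54.5 on the other 6 arrays. Hair follicle and sebaceous genes were higher for 6 of 15 and lower for 2, with a summed level of 91.5 against 43.6 to 60.0 elsewhere, and the inner root sheath keratins Krt25 and Krt73 read 8.20 against 0.403 and 6.66 against 0.661. Basal markers were lower for 5 of 11 and luminal markers for 6 of 13, with 0 higher in each, and Krt14 was 5.37-fold lower. Since Ly6d is known from the B lineage, 10 B cell markers were read as well, and 5 were higher and 1 lower of 10 (median 0.87), with a summed level of 32.7 against 14.4 to 17.0 on the other 6 arrays. Against WT at 24 days without DMBA, 4 of these 10 markers were higher and 1 lower, with a median of -0.05. Ms4a1, which encodes CD20, was good on αERKO (5.82) and on no other array. The part of muscle, skin appendages or B cells in the Ly6d level of αERKO was not tested.

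The array labelled βERKO differed from WT with DMBA in more of the genes, with the same WT array as reference, so that part of what both comparisons show is that array's own low levels. Ly6d was 145 against 1.5 (96.7-fold higher, 12.7 SD), Sprr1a 40.3 against 2.28 (17.7-fold higher, 7.99 SD) and Krt6a 14.7 against 3.11 (4.73-fold higher, 4.32 SD). Ivl was good on the array labelled βERKO only and was at least 5.25-fold higher. Tgm1 was 0.688 against 1.86, 2.70-fold lower (2.77 SD), and Krt4 and Lor were within 1 SD. Of 7 genes measured, 4 were over 2-fold higher and 1 lower, where 6.96% of 27469 probes were higher and 8.37% lower (15.3% either way). The median was 2.24 for the squamous genes and 0.09 for all probes. With normexp the log2 ratio of Tgm1 was -0.72, within 2-fold.

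Against WT at 24 days without DMBA, Ly6d was still 35.7-fold higher, Sprr1a 9.81-fold and Ivl at least 4.41-fold higher, but Krt6a was 1.32-fold higher and Tgm1 1.42-fold lower, so neither of these passed 2-fold. That left 3 of 8 genes over 2-fold higher and 0 lower, where 8.24% of 27094 probes were higher and 6.9% lower (15.1% either way). Krt1 was good on the WT array only and was lower there by at least 1.51-fold.

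On the array labelled βERKO, other epidermal genes were also above WT with DMBA. Keratins were over 2-fold higher for 5 of 9 and lower for 0, Krt16 at 22.0 against 4.57 and Krt17 at 17.4 against 3.77. Proteases and inhibitors were higher for 6 of 12 and lower for 1, with Slpi at 525 against 95.7, Klk6 7.06-fold higher and Stfa3 at least 19.8-fold higher. Envelope precursors were higher for 9 of 31 and lower for 1: Cdsn read 8.42 against 0.359 (23.5-fold higher) and Crct1 5.42 against 0.406 (13.3-fold higher), while Sprr2f, good on WT with DMBA only, was at least 89.6-fold lower. Klf5, Ovol1 and Grhl3 are transcription factors that promote epithelial differentiation, and on this array they were 3.55-fold, 2.97-fold and 2.81-fold higher, and the regulators as a whole were higher for 3 of 24 and lower for 0. Basal markers were higher for 1 of 11 and lower for 0, luminal markers for 1 of 13 each way, and muscle markers higher for 6 of 9. Of the B cell markers 0 of 8 were higher and 1 lower, with a summed level of 16.5, and Ms4a1 was not good (0.0686). Hair follicle genes were higher for 1 of 15 and lower for 3. These list results depend on the WT array used. Against WT at 24 days without DMBA, regulators were higher for 0 of 24 and lower for 2 (median -0.17). Keratins were higher there for 2 of 9 and lower for 0 (median 0.12). Proteases and inhibitors were higher for 3 of 12 and lower for 0 (median -0.23). Envelope precursors were higher for 6 of 31 and lower for 1 (median 0.22).

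**Figure D3:**
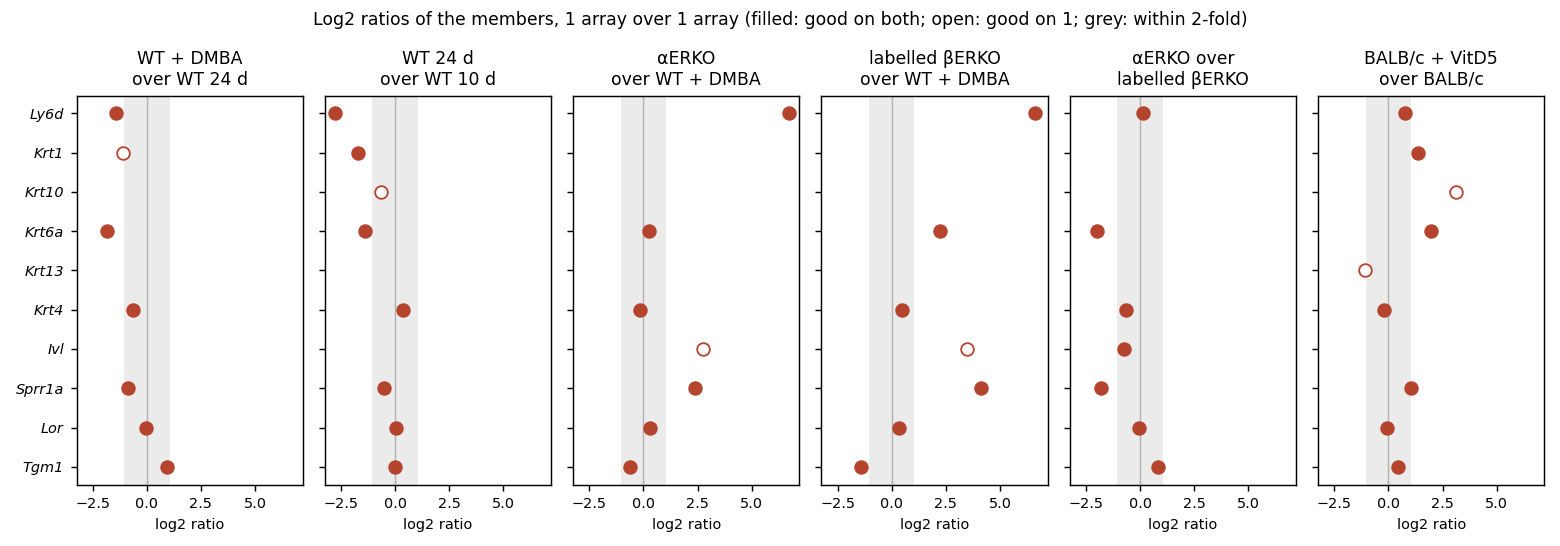
Log2 ratio of each gene in 6 comparisons of 1 array over 1 array; filled points are good on both arrays, open points on 1, and the grey band is within 2-fold. Ly6d lies at 6.73 and 6.60 for αERKO and the array labelled βERKO over WT with DMBA, while Lor stays in the band in all 6 panels.

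The direct comparison of αERKO with the array labelled βERKO shares no WT array. Krt6a was 3.66 on αERKO against 14.7 (4.02-fold lower, log2 -2.01, 2.52 SD) and Sprr1a 11.7 against 40.3 (3.45-fold lower, log2 -1.79, 2.25 SD). Ly6d differed by 1.10-fold, Ivl by 1.65-fold, Krt4 by 1.55-fold and Lor by 1.03-fold, each within 1 SD, and Tgm1 was 1.78-fold higher, at 1.04 SD. Of 7 genes measured, 2 were over 2-fold lower on αERKO and 0 higher, where 16.6% of 27026 probes were lower and 13.5% higher (30.1% either way). The median was -0.63 and that of all probes -0.18. Keratins were lower on αERKO for 5 of 8 and higher for 0 (4 of 6 and 0 without the genes of the 10), with Krt17 at 0.502 against 17.4 (34.6-fold lower). Proteases and inhibitors were lower for 8 of 12 and higher for 1, with Slpi at 14.4 against 525 (36.4-fold lower). Envelope precursors went both ways, 8 of 34 higher and 10 lower, with Sprr1b 4.11-fold and Crct1 8.27-fold lower. Basal markers were lower for 6 of 11 and luminal markers for 9 of 13, with 0 higher in each, and their part in the lower keratins was not tested.

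Vitamin D5, a vitamin D analog, was read in BALB/c glands. Krt6a was 42.4 with it and 10.96 without (3.87-fold higher, 6.07 SD), Krt1 2.26 against 0.872 (2.60-fold higher, 4.28 SD) and Sprr1a 6.63 against 3.20 (2.07-fold higher, 3.26 SD). Krt10, good with vitamin D5 only, was at least 2.75-fold higher, and Krt13, good without it only, was at least 1.52-fold lower. Ly6d was 29.2 against 17.0, 1.72-fold higher and 2.44 SD, Tgm1 was 1.37-fold higher at 1.43 SD, and Krt4 and Lor were within 1 SD. Of 9 genes measured, 4 were over 2-fold higher and 1 lower, where 5.12% of 28418 probes were higher and 7.06% lower (12.2% either way). Without Krt13, whose bound is below 2-fold, 4 remained. Krt10, among these, also has a dim spot, but its bound passes 2-fold. The median was 0.79, and 0.09 for all probes. Sprr1a, at log2 1.05, fell within 2-fold with quantile (0.95), 75th percentile (0.92), cyclic loess (0.92) and normexp (0.88) processing. Krt1 (0.80) and Krt10 (0.69) also fell within 2-fold with normexp, which left Krt6a (1.89).

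With vitamin D5, the related lists lay on the same side. Keratins were over 2-fold higher for 7 of 13 and lower for 1 (4 of 8 and 0 without the genes of the 10), with Krt16 at 113 against 32.7 (3.46-fold higher). Envelope precursors were higher for 10 of 35 and lower for 2 (9 of 33 and 2 without the genes of the 10). Of the 35, 32 had a ratio above 1, with Sprr2a1 3.60-fold, Crct1 3.10-fold and Lce3f 2.74-fold higher. These genes encode proteins of the envelope itself or of the outer keratin layers. Proteases and inhibitors were higher for 5 of 13 and lower for 1, among them Stfa3 at 117 against 29.1 (4.02-fold higher) and Klk10 3.38-fold higher. Asprv1, the protease that processes filaggrin, was 2.17-fold higher. Basal markers were past 2-fold for 0 of 11 (median 0.27, Krt14 1.66-fold higher) and luminal markers for 1 of 13, Krt8, which was 2.03-fold higher. Milk protein genes were higher for 4 of 7 and lower for 0, so the gland's own products also differed between this pair.

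**Figure D4:**
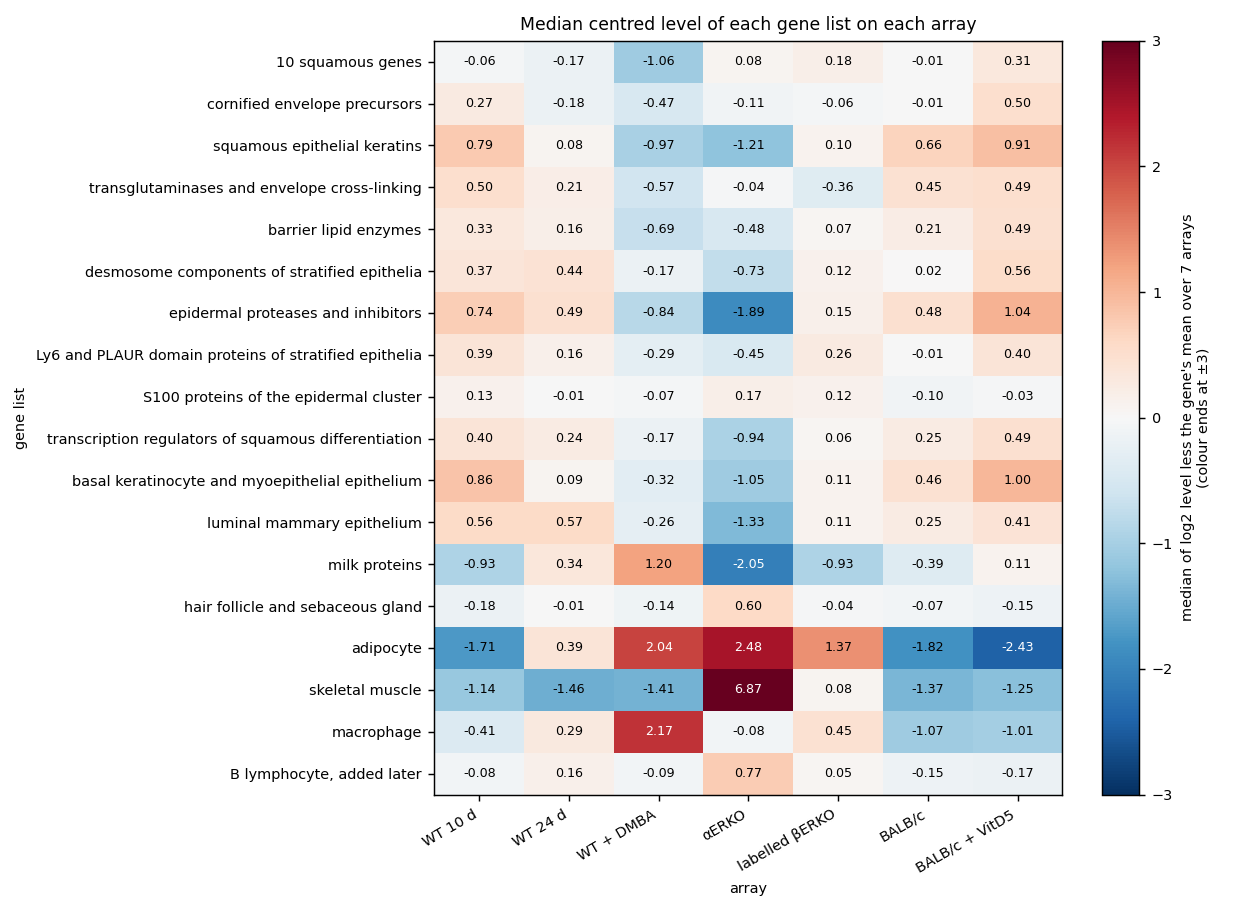
Median over the genes of each list of the log2 level less the gene's mean over the 7 arrays, as numbers and colour (colour ends at 3 either way). The 10 squamous genes are lowest on WT with DMBA (-1.06), as are the envelope precursors (-0.47), whereas the keratin and protease lists are lowest on αERKO (-1.21 and -1.89), the array on which the muscle list stands at 6.87. Each gene good on at least 1 array enters with all its values, including spots not called good. Of the 10 squamous genes, 6 were good on WT with DMBA.

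The genes whose profile over the 7 arrays was most like the mean of the 9 squamous genes were ranked among 3381 genes good on at least 2 arrays and spanning at least 4-fold. Cela3b (Pearson r = 0.98), Apba2 (0.96), Dnah11 (0.94) and Nkx2-9 (0.92) came first, but their levels were at most 1.03. Of the 7 arrays, Cela3b was good on 3, Apba2 on 2, Dnah11 on 5 and Nkx2-9 on 3, so these correlations include dim values. Klk8, an epidermal kallikrein, followed at 0.91 and was good on all 7 arrays, from 1.07 on WT with DMBA to 7.85 on BALB/c with vitamin D5. Sprr1b, a close relative of Sprr1a, followed at 0.89, from 2.30 on WT with DMBA to 20.4 on the array labelled βERKO. Ddit4l (0.89), Casq2 (0.89), Tnfrsf18 (0.88) and Rhox4b (0.87) completed the 10 nearest, of which Klk8, Sprr1b, Ddit4l and Tnfrsf18 were good on all arrays. For 8 of the 10 the lowest array was WT with DMBA. This follows largely from the ranking, since the mean profile used for it is itself lowest on WT with DMBA (-1.17).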

How the data were processed

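The authors hybridized labelled cRNA to CodeLink Mouse Whole Genome arrays, 1 per group, and deposited for each spot an intensity (spot mean less local background median) with a quality call; they analysed it in GeneSpring GX 7.3. The genome build is not given in the sources used here, and the series-wide value table was not used. Intensities were divided by the median of the 34967 gene probes of the array, without the 320 negative and 300 positive control spots. The 246 to 344 values per array at or below 0 were set to the smallest positive value there before log2 was computed. Probes were named through RefSeq (GRCm38.p6), which matched 14763 of 15533 RefSeq accessions. Probes good on at least 1 array of a pair were counted past 2-fold. No test could be made with single arrays, whose number limits the precision. Genes named are the 10, Esr1, Esr2, up to 4 per list with the largest ratio in each comparison, and the 10 most alike; Krt18 was chosen after its values were seen. The 10 genes and all lists were chosen with earlier results of these data known, and the B cell list was added last. Alternatives were quantile, cyclic loess and 75th percentile scaling, the authors' normalized intensities, normexp (offset 50), other filters and floors, 1.5-fold and 3-fold thresholds and another WT reference. Python 3.11.15 (numpy 2.4.6, pandas 2.3.3, matplotlib 3.10.9) and R 4.3.3 (limma 3.58.1) were used, and scripts were tested on simulated data.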

Additional observations from a re-analysis of the deposited data

How the results depend on the processing

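Of 503 log2 ratios of the 10 genes under the alternatives, 475 moved by less than the SD of probe error and 28 moved further. Among those past 2-fold, 0 turned direction. Many of the 503 could not move, because the 1.5-fold and 3-fold thresholds, the filters on good spots and the mean over a gene's probes leave these ratios unchanged. The 475 therefore overstates how stable the ratios were. Of 68 counts of genes past 2-fold, 56 stayed within 1.5 times. For DMBA in WT, the count of 3 became 1 with normexp, 5 with no background filter, 1 at a 3-fold and 6 at a 1.5-fold threshold. For vitamin D5, the count of 5 became 3 with quantile or cyclic loess normalization or only probes good on both arrays, 1 with normexp and 2 at 3-fold. With WT without DMBA as the reference, αERKO went from 3 to 5 and the array labelled βERKO from 5 to 3. For αERKO against the array labelled βERKO, 2 became 5 at 1.5-fold. Under normexp Ly6d was 5.77 on αERKO and 5.70 on the array labelled βERKO (log2, over WT with DMBA). The log2 median of all probes moved by over 0.1 for αERKO over WT with DMBA (-0.09 to 0.04 with 75th percentile scaling), for αERKO over the array labelled βERKO (-0.18 to 0.05 with cyclic loess), for DMBA (-0.13 to 0.00 with cyclic loess), for the array labelled βERKO over WT with DMBA (0.09 to -0.02 with cyclic loess) and for vitamin D5 (0.09 to -0.04 with 75th percentile scaling). The share of higher probes among all past 2-fold moved from 54.5% to 70.3% for DMBA, from 48.8% to 37.7% for culture time and from 42.0% to 61.8% for vitamin D5 with normexp, and from 44.9% to 55.8% for αERKO over the array labelled βERKO with 75th percentile scaling. Dim probes limit Krt1, Krt10, Krt13 and Ivl. No paired analysis was possible because each group has 1 array and the labels give no replicate numbers; for the same reason no array could be left out.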
